A study of Mus musculus with 15 samples.

Results

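Genes of glutathione metabolism and antioxidant defence were followed in a mouse osteoblast precursor line during osteogenic treatment. The set held 10 genes chosen by name, of 8251 with a probe set of a single symbol: Gclm, the glutathione transferases Gsta4, Gstm1, Gstm2 and Gstm5, and Txnrd1, Hmox1, Mt1, Mt2 and Sod3. All probe sets whose only gene symbol in the platform annotation was one of these names were taken, which gave 15 of the 12488 probe sets on the array and at least 1 for each gene. Of these, 14 passed the filter on dim signal and were tested, and they stood for all 10 genes. The remaining one, a Gstm5 probe set (161722_f_at), had a mean intensity of 16.1 and values of 3.8 to 35.3, and was not tested.

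The line was MC3T3 clone 1b, a single clone derived from mouse calvaria (skull bone). Treated cultures received 3 additions for 1 or 3 days: beta-glycerol phosphate (GP), from which phosphate for mineral is released, ascorbic acid (AA), a reducing vitamin that collagen hydroxylases need, and BMP-2, a growth factor that induces bone. GP cultures received GP alone for 1 or 3 days, and the day 0 cultures stood in control medium. Each of these 5 groups had 3 arrays, 1 for each prep numbered 1 to 3. AA and BMP-2 were given together in every treated culture, so their effects cannot be told apart, and the day 0 cultures differ from the GP cultures in both medium and age. The labels do not say that the preps were separate cultures, so p-values measure only how these samples vary, and that variation may be technical. In bulk RNA, fewer cells of a type and less RNA per cell cannot be told apart.

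Glutathione is a small thiol that cells use to reduce peroxides and to tag reactive compounds for removal. Its rate-limiting step is run by glutamate-cysteine ligase, whose modifier subunit is encoded by Gclm, and glutathione transferases attach it to their substrates. The transcription factor Nrf2 drives many of these genes through antioxidant response elements when cells meet oxidants or electrophiles. Metallothioneins are cysteine-rich proteins that bind zinc and copper, and their genes respond to metal through metal response elements, to glucocorticoid and to oxidants.

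The promoters of Mt1, Mt2 and Gclm are shown because the metallothionein genes lie next to each other on chromosome 8 with 0 genes between them in the RefSeq table, and because Gclm was the member called higher in treated cultures. Each window runs from 250 bases before to 50 after a listed transcription start, from RefSeq on GRCm38.p6, plus strand. They lie at chr8:94172368-94172667 for Mt2, chr8:94178839-94179138 for Mt1 and chr3:122245307-122245606 for Gclm. Capitals mark matches, on either strand, to the antioxidant response element core TGACNNNGC and to the metal response element cores TGCACNC and TGCGCNC.
Mt2: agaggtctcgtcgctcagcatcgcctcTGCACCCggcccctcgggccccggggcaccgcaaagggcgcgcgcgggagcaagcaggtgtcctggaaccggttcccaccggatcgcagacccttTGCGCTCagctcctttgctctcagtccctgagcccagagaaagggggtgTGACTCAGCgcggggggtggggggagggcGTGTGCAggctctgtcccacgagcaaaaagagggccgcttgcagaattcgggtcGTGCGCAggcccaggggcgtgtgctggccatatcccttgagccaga
Mt1: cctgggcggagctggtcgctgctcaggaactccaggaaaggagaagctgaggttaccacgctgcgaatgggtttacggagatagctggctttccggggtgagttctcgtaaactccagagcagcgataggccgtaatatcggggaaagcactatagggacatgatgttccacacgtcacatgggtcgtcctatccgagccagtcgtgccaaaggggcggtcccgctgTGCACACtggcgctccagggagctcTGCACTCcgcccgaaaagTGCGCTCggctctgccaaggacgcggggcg
Gclm: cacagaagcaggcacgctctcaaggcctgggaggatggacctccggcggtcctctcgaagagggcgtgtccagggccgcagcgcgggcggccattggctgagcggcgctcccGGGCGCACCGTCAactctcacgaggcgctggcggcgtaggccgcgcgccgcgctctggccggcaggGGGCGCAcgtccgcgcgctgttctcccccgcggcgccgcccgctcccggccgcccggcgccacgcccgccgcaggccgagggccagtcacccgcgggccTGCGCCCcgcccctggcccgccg
The Mt2 window held 4 metal response element cores and 1 antioxidant response element core, and the Mt1 window held 3 metal response element cores and 0 of the other. In RefSeq the Mt1 gene starts at 94178883, near the left end of its window. The Mt2 gene starts at 94172618, near the right end of its window, so the windows cover unlike parts of these genes. The Gclm window held 3 metal response element cores and 1 antioxidant response element core, which overlaps one of the metal cores. Among 32817 RefSeq windows of this length, 12.4% held the antioxidant core and 25.7% either metal core. At least 3 metal cores were present in 1.97% of windows and at least 4 in 0.518%. Windows were also listed for Gstm1, Gstm2, Gstm5 and Txnrd1, and for none of Gsta4, Hmox1 and Sod3. Of those, the Gstm5 window and 1 of 3 Txnrd1 windows held the antioxidant core, and the Gstm2 window held none of these motifs. A match is only a run of letters and was not tested as a binding site.

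The deposited intensities had the same trimmed mean, 150.0, on every array, and the number of arrays limits the precision. Prep 3 stood apart from the other preps on the first principal component (32.7% of the variance), and the GP day 3 array of prep 3 had an actin 3' to 5' ratio of 2.11, against 1.00 to 1.34 on the other arrays. Of 6 osteoblast-lineage markers 5 were tested, with a summed intensity of 16523 to 26909.8 per array; Col1a1, the main bone collagen gene, ranged from 6727 to 11862, Alpl, alkaline phosphatase, from 10.2 to 970.9, and Ibsp, not tested, from 0.5 to 169. None of 4 endothelial and 3 adipocyte markers passed the filter on dim signal, against 3 of 5 skeletal muscle and 1 of 4 epithelial markers. Of 6 macrophage markers 2 passed, Cd14 and Csf1r, while Cd68, Ptprc, Lyz2 and Adgre1 did not and ranged from 0.4 to 34. The summed macrophage list was 443 to 975 in treated and 455 to 1085 in GP cultures at day 1, and 364 to 661 in treated and 423 to 724 in GP cultures at day 3. Most of that sum was Cd14, with group means of 465 to 724. No other marker of the list had a group mean above 60.1. The part of this list in the results was not tested.

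Compared within preps, the metallothioneins and the bright Gstm1 probe set were lower and Gclm was higher in treated than in GP cultures after 1 day, and Mt2, Hmox1 and a weak Gstm2 probe set were lower after 3 days. At day 1 Mt2 had 0.335 and Mt1 0.421 of the signal of GP cultures, Gstm1 had 0.531, and Gclm had 1.66 times the signal. At day 3 Mt2 had 0.238 and Hmox1 0.714 of the signal of GP cultures. Txnrd1 had 1.20 and 1.29 times the signal of GP cultures at days 1 and 3 and did not pass the test at either.

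With all 15 arrays in the fit, these differences passed when the prep number entered the model as a block, which compares treated and GP arrays of the same prep (called the prep block below), and not without it. Without the block but also without all arrays of prep 3, limma called Gstm1 (adjusted p = 0.00590), Gclm (0.0454) and Mt1 (0.00283) at day 1 and Hmox1 (0.0380), Mt1 and Mt2 at day 3. The share of all probe sets called without prep 3 is not given here. With all 15 arrays and no block, p-values were adjusted by Benjamini-Hochberg over all 7453 tested probe sets. Limma then called 0 of 14 members at day 1, where 0.926% of all probe sets were called. At day 3 it called 0 of 14, where 4.11% of all were. At an unadjusted p under 0.05 the members numbered 3 and 5, and all probe sets 842 and 1245. With the prep block, 4 members were called at day 1, against 4.99% of all probe sets: 1 higher, where 2.07% of all were, and 3 lower, where 2.92% were. At day 3 it called 3 of 14, against 13.8% of all probe sets, and all 3 were lower, where 6.99% of all were. Over the whole array the counts were 69 at day 1 and 306 at day 3, and 372 and 1031 with the prep block. The median log2 difference of the 14 members was -0.29 at day 1 and -0.36 at day 3, where the median of all tested probe sets was 0.00 at both. Of the 14, 11 were lower in treated cultures at each day. These are probe sets of 10 genes, with Gstm1, Gstm2 and Gstm5 each read by more than 1, so they are not separate readings. The genes were chosen with earlier results of these data known.

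**Figure D1:**
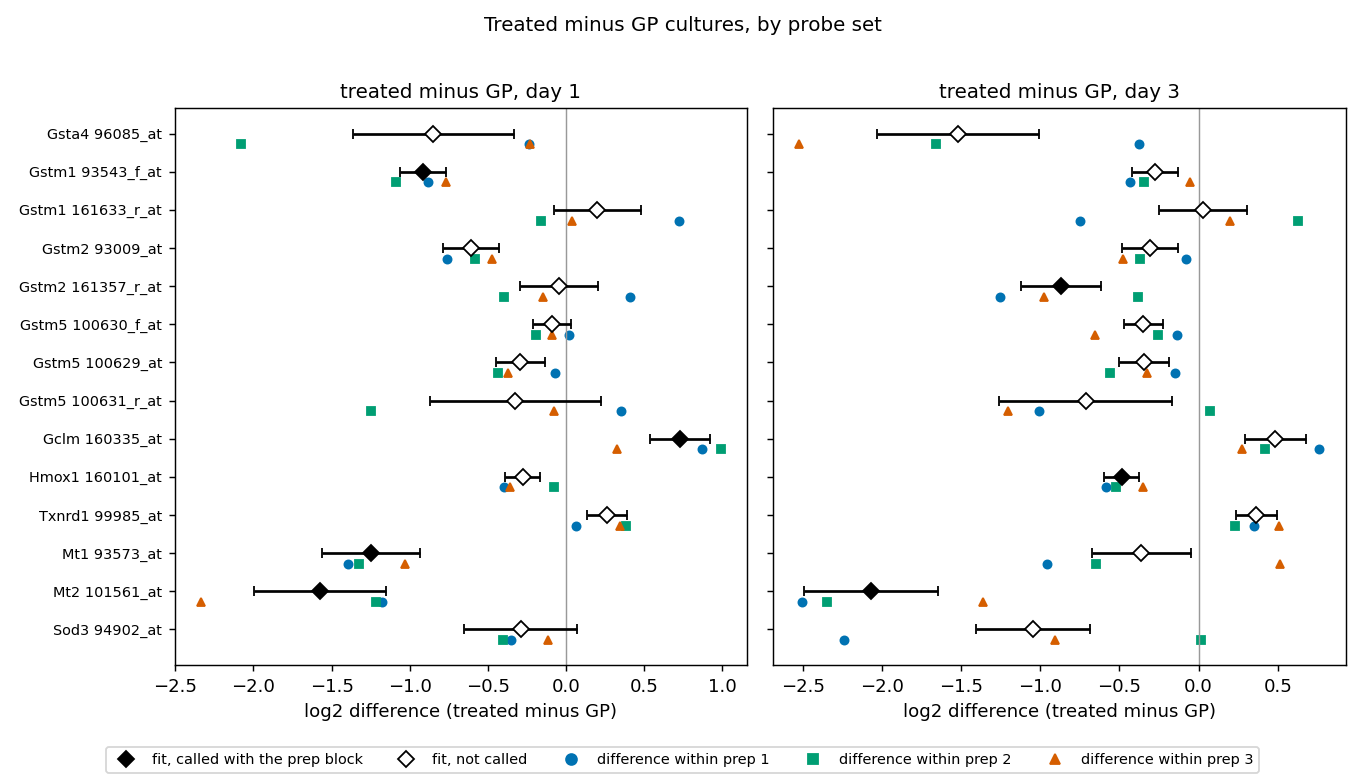
Log2 difference of treated minus GP cultures for the 14 tested probe sets at day 1 (left) and day 3 (right). Diamonds give the fitted difference with its standard error from the fit with the prep block, filled where the adjusted p was under 0.05, and coloured symbols give the difference within each prep. At day 1 Gstm1 (93543_f_at), Mt1 and Mt2 lie left of 0 and Gclm right of it in all 3 preps. Uncalled members did likewise: Gsta4, Gstm2 (93009_at), Gstm5 (100629_at), Hmox1 and Sod3 left, Txnrd1 right. At day 3 Mt2, Hmox1 and Gstm2 (161357_r_at) lie left of 0 in all 3. So do the uncalled Gsta4, Gstm1 (93543_f_at), Gstm2 (93009_at) and Gstm5 (100630_f_at, 100629_at), while Gclm and Txnrd1, also uncalled, lie right. The share of all probe sets with 1 sign in all 3 preps is not given here.

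Treated and GP arrays did not overlap for 4 of 14 members at day 1, where this held for 17.1% of all tested probe sets, and for 4 of 14 at day 3, against 20.1%. At day 1 these were Gclm, higher, and Gstm1 (93543_f_at), Gstm2 (93009_at) and Sod3, lower. At day 3 they were Gclm, higher, and Gstm2 (93009_at), Gstm5 (100630_f_at) and Mt2, lower.

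The genes are taken here by role, first glutathione synthesis. Gclm had intensities of 323, 304 and 199 in treated cultures at day 1 (preps 1, 2 and 3), against 176, 153 and 159 in GP cultures. All treated values lay above all GP values, and prep 3 had the lowest treated value. The log2 difference was 0.73 ± 0.20 (SE, n = 3 arrays per group; adjusted p = 0.111, and 0.0429 with the prep block). At day 3 Gclm had 171, 157 and 168 in treated cultures, against 101, 117 and 139 in GP cultures. The groups again did not overlap, and the difference of 0.49 ± 0.20 passed in neither fit (adjusted p = 0.207, and 0.113 with the prep block). The day 1 call with the block was lost without any one of 5 of the 6 arrays, with adjusted p = 0.174 and 0.171 without treated preps 1 and 2 and 0.0813, 0.199 and 0.115 without GP preps 1, 2 and 3. Without treated prep 3 it was 0.0127, with a difference of 0.97, and without the block 0.0353. The blocked call was also lost without all arrays of prep 1 (0.2103) or prep 2 (0.396), with no signal filter (0.0895), with quantile normalization (0.0539) and in a fit of only these groups (0.0501).

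Gclm also passed against day 0 without the block. Day 0 cultures had 118, 158 and 126, all below the treated day 1 values, and Gclm rose by 1.02 ± 0.20 on the log2 scale in treated cultures at day 1 (adjusted p = 0.0109, and 0.00347 with the prep block). Without 1 array the unblocked adjusted p ranged from 0.00503 to 0.0522, and of the single arrays day 0 prep 1 lost the call. In a fit of these 2 groups alone it was 0.0816. Without all arrays of prep 1 or prep 2 the call was lost without the block (0.297 and 0.198) and with it (0.0815 and 0.0543). The difference between treated day 3 and day 0 was 0.31 ± 0.20, which passed in neither fit. Between treated day 3 and treated day 1 it was -0.71 ± 0.20 (adjusted p = 0.212, and 0.0585 with the block).

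The mu-class transferase Gstm1 was read by a bright probe set, 93543_f_at, whose manufacturer's suffix marks sequence shared within a gene family, so signal from related transcripts was not told apart. It had 1723, 1562 and 1495 in treated cultures at day 1, against 3179, 3318 and 2549 in GP cultures. The 3 treated values were close together, with a standard deviation of 117, and all lay below the lowest GP value. Gstm1 fell by 0.91 ± 0.15 on the log2 scale with the prep block (adjusted p = 0.00323), while without it the standard error was 0.24 and the adjusted p 0.0973. With the block the call held without each of the 6 arrays in turn (0.00416 to 0.0230), and it was lost without all arrays of prep 1 (0.0571) or prep 2 (0.123). At day 3 the values were 3080.5, 3551 and 2164 in treated cultures, against 4159, 4505 and 2250.3 in GP cultures. They overlapped, and the difference of -0.28 ± 0.24 passed in neither fit (adjusted p = 0.632, and 0.250 with the block). Fits that left out an array pooled the spread over the groups.

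Day 0 cultures had Gstm1 values of 3019.7, 3456 and 2791, and against them Gstm1 fell by 0.95 ± 0.24 on the log2 scale in treated cultures at day 1 (adjusted p = 0.0362, and 0.00114 with the prep block). Without the block that call was lost whichever of the 6 arrays was left out, with adjusted p = 0.0712, 0.113 and 0.110 without treated preps 1, 2 and 3 and 0.0991, 0.128 and 0.0735 without day 0 preps 1, 2 and 3, and with no signal filter (0.0829) or quantile normalization (0.0556). It was also lost without all arrays of prep 1 (0.327) or prep 2 (0.369). With the block it held in all of these. Treated day 3 was higher than treated day 1 by 0.85 ± 0.15 with the prep block (adjusted p = 0.00645), in 3 of 3 preps, and not without it (0.212). That blocked call held without each array and was lost without all arrays of prep 1 (0.0917) or prep 2 (0.184). The weaker Gstm1 probe set, 161633_r_at, whose suffix marks relaxed probe selection, did not follow. It ranged from 61.1 to 150.4 over all arrays and differed by 0.20 ± 0.31 at day 1 and 0.03 ± 0.31 at day 3, both signs turning when some arrays or preps were left out.

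Gstm2, the neighbour of Gstm1 on chromosome 3 with 0 genes between them, had 363, 542 and 591 in treated cultures at day 1, against 615, 812 and 822 in GP cultures (93009_at). The groups did not overlap, and each prep was lower under treatment, with log2 differences of -0.76, -0.58 and -0.47. The fitted difference of -0.61 ± 0.20 passed in neither fit (adjusted p = 0.231, and 0.0671 with the prep block). At day 3 treated cultures had 879, 757 and 632, against 929, 977 and 881 in GP cultures, a difference of -0.31 ± 0.20 that also passed in neither fit. The treated day 1 level, against 673, 848 and 996 in day 0 cultures, fell by 0.76 ± 0.18 with the block (adjusted p = 0.0128, and 0.0527 without it). With the block that call was lost without treated prep 1 (0.0703), day 0 prep 3 (0.0733) or all arrays of prep 2 (0.129).

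The weaker Gstm2 probe set, 161357_r_at, disagreed with the bright one. It had 119.5, 79.4 and 82.8 in treated and 89.9, 104.7 and 91.5 in GP cultures at day 1, where the groups overlapped. At day 3 it had 58.7, 89.3 and 37.9 in treated cultures, against 140.2, 116 and 74.5 in GP cultures. Within each prep the treated value was the lower, and the difference was -0.87 ± 0.34 (adjusted p = 0.192, and 0.0340 with the prep block). That call was lost when any one array other than treated prep 2 was left out, with adjusted p = 0.134 without treated prep 1 or 3, and 0.135, 0.0969 and 0.0517 without GP preps 1, 2 and 3. It was also lost without all arrays of prep 1 (0.263), 2 (0.0666) or 3 (0.107), with no signal filter (0.0778) and in a fit of only these groups (0.0548). Over the 15 arrays, after each prep was centred, the log2 values of the 2 Gstm2 probe sets had a Pearson correlation of 0.07 and those of the 2 Gstm1 probe sets -0.10, given as a description of arrays that share groups and preps.

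Gstm5, another mu-class transferase, was read by 3 tested probe sets, and none passed in either fit at either day. On the brightest, 100630_f_at, treated cultures at day 3 had 930.4, 915 and 970.4, against 1024, 1093 and 1525 in GP cultures. The groups did not overlap, and the GP value of prep 3, from the array with the high actin ratio, was the highest. The difference was -0.35 ± 0.18 (adjusted p = 0.356, and 0.0746 with the prep block). At day 1 it was -0.09 ± 0.18, with a sign that turned when single arrays were left out. The other probe sets, 100629_at and 100631_r_at, differed by -0.29 ± 0.23 and -0.32 ± 0.58 at day 1 and by -0.35 ± 0.23 and -0.71 ± 0.58 at day 3.

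Gsta4, the alpha-class transferase that conjugates the lipid peroxidation product 4-hydroxynonenal, was dim. It had 30.1, 11.8 and 61.6 in treated cultures at day 1, against 35.5, 49.8 and 72.2 in GP cultures. At day 3 it had 37.8, 8.2 and 11.2 in treated cultures, against 49.1, 25.9 and 64.5 in GP cultures. Treated was the lower in each prep at both days, but the groups overlapped and the spread was wide. The day 3 difference of -1.52 ± 0.70 passed in neither fit (adjusted p = 0.293, and 0.0666 with the prep block), and its size is uncertain because 2 treated values lay under the signal filter of 22.3.

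Txnrd1, cytosolic thioredoxin reductase and like Gclm a known Nrf2 target, had 523, 433 and 399.7 in treated cultures at day 1, against 499.8, 332 and 315 in GP cultures. At day 3 it had 447, 339 and 399.8, against 350.0, 289 and 281 in GP cultures. Each prep was higher under treatment at both days, while the groups overlapped. The differences of 0.26 ± 0.20 and 0.36 ± 0.20 passed in neither fit (adjusted p = 0.739 and 0.388, and 0.286 and 0.0830 with the prep block).

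Hmox1 encodes heme oxygenase 1, which breaks down heme and is induced by oxidants and heme in many cells. It had 845, 822 and 568 in treated cultures at day 3, against 1267, 1179 and 725 in GP cultures. Prep 3 was the lowest in both groups, which overlapped, and each prep was lower under treatment, with log2 differences of -0.58, -0.52 and -0.35. Hmox1 fell by 0.49 ± 0.11 with the prep block (adjusted p = 0.0116), and without it the standard error was 0.33 and the adjusted p 0.528. The blocked adjusted p ranged from 0.00918 to 0.0536 without 1 array, and of the single arrays GP prep 1 lost the call, with a difference of -0.46. It was also lost without all arrays of prep 1 (0.165) or prep 2 (0.0938). At day 1 the values were 722.5, 882 and 404 in treated cultures, against 953, 928 and 518 in GP cultures, a difference of -0.28 ± 0.33 that passed in neither fit (adjusted p = 0.899, and 0.181 with the block).

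**Figure D2:**
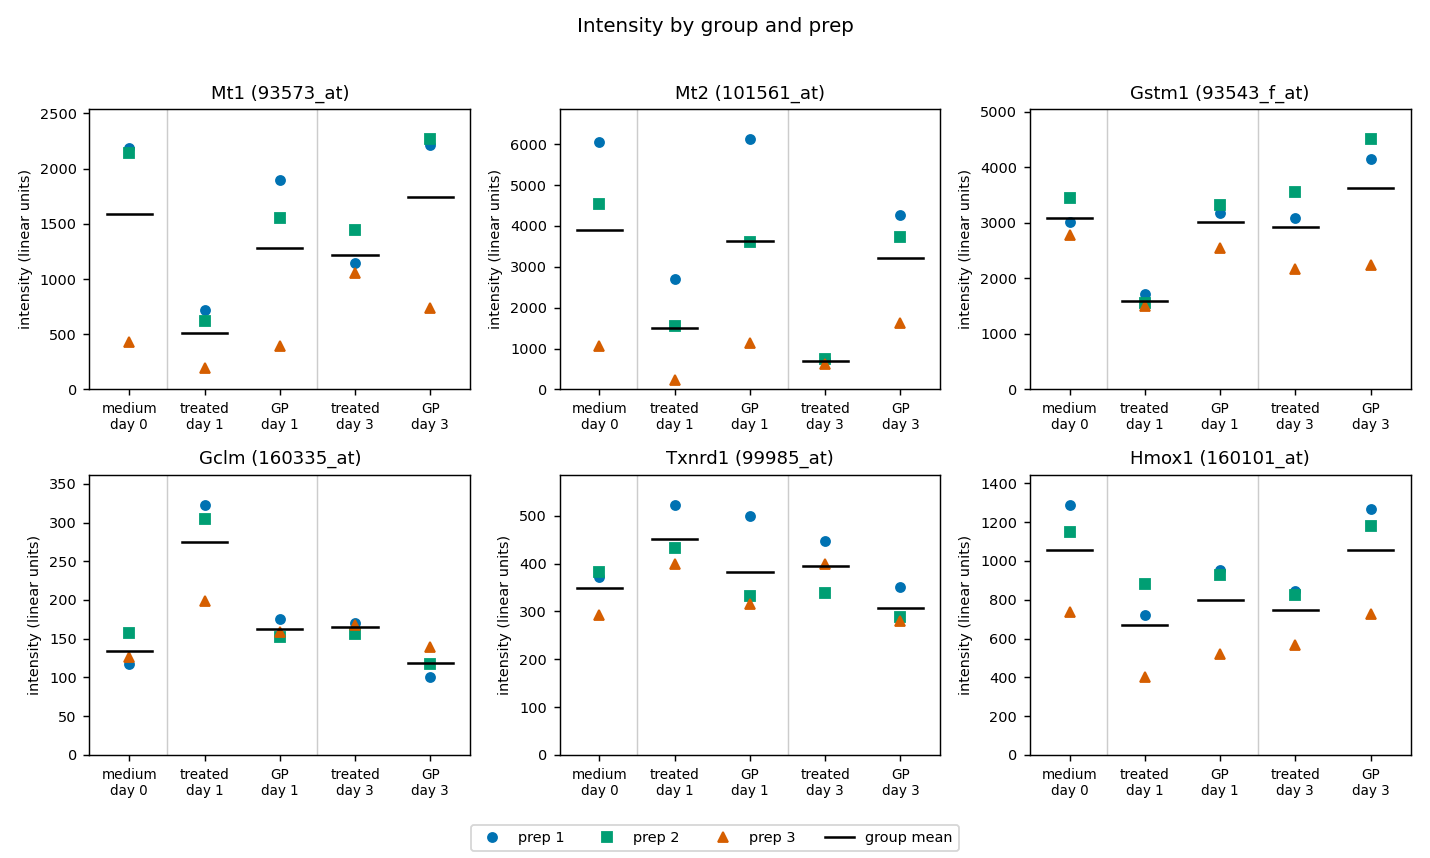
Intensity on a linear scale of Mt1, Mt2, Gstm1, Gclm, Txnrd1 and Hmox1 in the 15 arrays. Symbols mark the preps and lines the group means of 3 arrays. Mt2 at treated day 3 lies between 628.5 and 752, below all 3 GP arrays, and prep 3 is low for Mt1 and Mt2 in the other 4 groups.

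The metallothioneins had the largest fitted falls among the members called. Mt2 had 2705, 1555 and 227 in treated cultures at day 1, against 6119, 3611 and 1147 in GP cultures. Prep 3 was far below the other preps in both groups, so the groups overlapped, and within each prep the treated value was the lower. Mt2 fell by 1.58 ± 0.42 on the log2 scale with the prep block (adjusted p = 0.0487), against a standard error of 0.85 and an adjusted p of 0.531 without it. That blocked call was lost without treated prep 2 (0.0945) or 3 (0.188) and without GP prep 1 (0.1495), 2 (0.147) or 3 (0.109), and it held without treated prep 1 (0.0323). Without treated prep 3 the difference was -1.01. The call was also lost without all arrays of prep 1 (0.0914) or prep 2 (0.303), with no signal filter (0.141) and with median centring (0.0532).

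At day 3 Mt2 had 752, 733 and 628.5 in treated cultures, against 4268, 3742 and 1616 in GP cultures. The treated values lay close together and all below the lowest GP value. Mt2 fell by 2.07 ± 0.42 with the prep block (adjusted p = 0.00591), and without it the standard error was 0.85 and the adjusted p 0.214. The blocked call held without each of the 6 arrays (0.000322 to 0.0320) and without all arrays of prep 1 (0.0467) or prep 3 (6.86e-05), and was lost without prep 2 (0.115). Without the block, a fit of the day 3 groups alone also called it (0.0388).

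Mt1 had 724, 620.2 and 191 in treated cultures at day 1, against 1899.7, 1552 and 389 in GP cultures. Prep 3 was again the lowest in each group, and treated was the lower in 3 of 3 preps, with log2 differences of -1.39, -1.32 and -1.03. Mt1 fell by 1.25 ± 0.31 with the prep block (adjusted p = 0.0359), against a standard error of 0.72 and an adjusted p of 0.586 without it. Leaving out any one of the 6 arrays lost that call, with adjusted p = 0.0696, 0.123 and 0.116 without treated preps 1, 2 and 3 and 0.1399, 0.143 and 0.0533 without GP preps 1, 2 and 3. It was also lost without all arrays of prep 1 (0.135) or prep 2 (0.3399) and with no signal filter (0.115).

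At day 3 Mt1 did not follow Mt2. It had 1144, 1445 and 1053 in treated cultures, against 2219, 2265 and 736 in GP cultures. Preps 1 and 2 were lower under treatment, with log2 differences of -0.96 and -0.65, and prep 3 was higher, at 0.52. The difference of -0.36 ± 0.72 passed in neither fit (adjusted p = 0.871, and 0.505 with the prep block). The prep 3 difference rests on a treated and a GP array, and the GP array is the one with the actin ratio of 2.11, whose part was not tested. Elsewhere in prep 3 Mt1 had 191 in treated and 389 in GP cultures at day 1, and 431 at day 0. Both day 3 values of prep 3 lay above these, the treated one the further. In the fit without the block and without prep 3, so on preps 1 and 2 alone, the Mt1 difference was -0.80 (adjusted p = 0.0144). That of Mt2 was -2.43 (0.00160). Between treated day 3 and treated day 1, Mt1 rose by 1.45 ± 0.31 with the prep block (adjusted p = 0.0201, and 0.650 without it), in 3 of 3 preps. Mt2 differed by -0.49 ± 0.42 with the block, with a sign that was positive in prep 3 and negative in preps 1 and 2. The Mt1 call was lost without treated day 1 prep 1 (0.0539), 2 (0.0901) or 3 (0.0694), without all arrays of prep 2 (0.222), with no signal filter (0.0813) and in a fit of only these groups (0.0774).

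The preps differed widely in metallothionein level. In GP cultures the mean of preps 1 and 2 over prep 3 was 4.43 for Mt1 and 4.24 for Mt2 at day 1, and 3.05 and 2.48 at day 3. At day 0 it was 5.03 and 4.93. In treated cultures it was 3.52 for Mt1 and 9.39 for Mt2 at day 1, and 1.23 and 1.18 at day 3. Averaged over the 5 groups, the log2 deviation of prep 3 from its group mean was -1.09 for Mt1, -1.21 for Mt2 and -0.52 for Hmox1, and those of preps 1 and 2 were above 0. No value of any tested member lay at the intensity floor of 2.8.

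**Figure D3:**
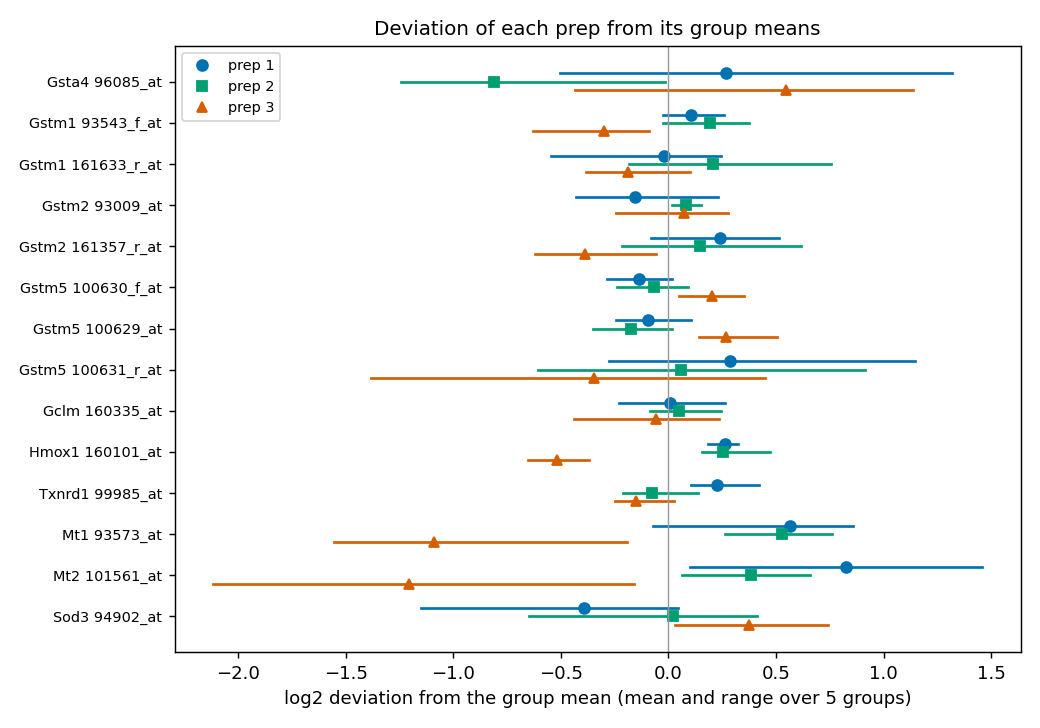
Deviation of each prep from its group mean on the log2 scale, for the 14 tested probe sets. Points are means and lines ranges over the 5 groups. The prep 3 points of Mt1, Mt2 and Hmox1 lie at -1.09, -1.21 and -0.52, and their ranges do not reach 0.

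Sod3, extracellular superoxide dismutase, was dim. It had 54.4, 57.7 and 69.0 in treated cultures at day 1, against 69.3, 76.1 and 74.8 in GP cultures. These groups did not overlap, by a margin of less than 1 unit, and the difference of -0.29 ± 0.44 passed in neither fit. At day 3 it had 14.9, 44.0 and 55.4 in treated cultures, against 70.6, 43.6 and 103.8 in GP cultures, a difference of -1.05 ± 0.44 that also passed in neither fit (adjusted p = 0.236, and 0.0735 with the prep block). The treated value of prep 1 was the lowest of all arrays.

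**Figure D4:**
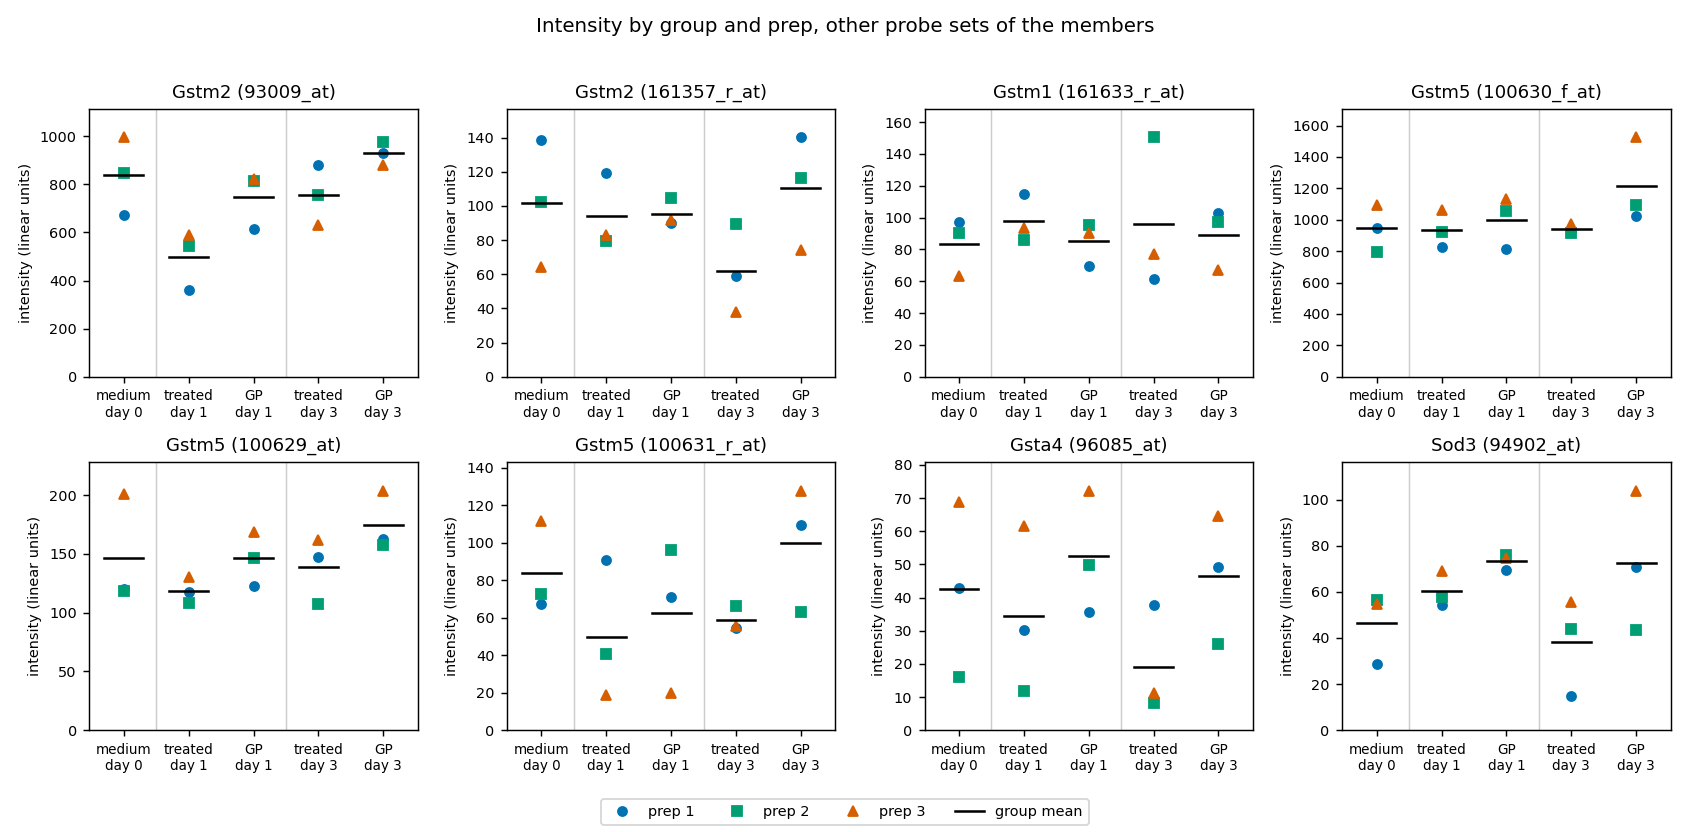
Intensity on a linear scale of the other 8 tested probe sets of the set in the 15 arrays, with symbols for preps and lines for group means of 3 arrays. For Gstm2 (93009_at) the 3 treated arrays at day 1 lie between 363 and 591, below all 3 GP arrays at 615 to 822, while for 161357_r_at of the same gene they overlap.

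The order of the group means on the log2 scale differed between genes. Gclm and Txnrd1 had their highest mean in treated day 1 and their lowest in GP day 3, and between neighbours in that order only treated day 1 over treated day 3, for Gclm, did not overlap. Gstm1 (93543_f_at) and Gstm2 (93009_at) had their highest mean in GP day 3 and their lowest in treated day 1, and only that last step did not overlap with its neighbour. Hmox1 had its highest means in day 0 and GP day 3 and its lowest in treated day 1, with overlap at every step. Mt1 was lowest in treated day 1 and Mt2 in treated day 3, and every neighbouring pair overlapped.

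Against day 0, which shares its treated arrays with the comparisons above, 2 of 14 members were called at treated day 1 without the block, Gclm higher and Gstm1 lower, where 3.98% of all probe sets were. With the prep block 6 were called: Gclm higher, where 6.02% of all probe sets were, and Gstm1, Gstm2 (93009_at), Hmox1, Mt1 and Mt2 lower, where 5.98% were. Hmox1, at 1289, 1148 and 737 in day 0 cultures, fell by 0.69 ± 0.11 at treated day 1 (adjusted p = 0.00161 with the block and 0.334 without). Mt1, at 2192, 2142 and 431 in day 0 cultures, fell by 1.52 ± 0.31 (0.00623 with the block and 0.331 without). Mt2, at 6067, 4535 and 1074 in day 0 cultures, fell by 1.65 ± 0.42 (0.0209 with the block and 0.385 without), a call lost without treated prep 3 (0.104), day 0 prep 1 (0.0810) or 2 (0.0773), or all arrays of prep 2 (0.164), and with no signal filter (0.0771). Leaving out all arrays of prep 1 lost the Hmox1 call (0.0567), and leaving out all of prep 2 lost that of Mt1 (0.131).

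At treated day 3 against day 0, 0 of 14 were called without the block, where 2.62% of all probe sets were. At an unadjusted p under 0.05 there were 2 members and 1124 of all 7453 probe sets. With the block 2 were called, against 11.7%: Mt2 fell by 2.14 ± 0.42 (adjusted p = 0.00551) and Hmox1 fell by 0.49 ± 0.11 (0.0130). The Hmox1 call was lost without treated prep 1 (0.0530) or 2 (0.0572) or day 0 prep 1 (0.0598) or 3 (0.0560), without all arrays of prep 1 (0.182) or prep 2 (0.0816), and in a fit of only these groups (0.0769). The Mt2 call held without each single array and was lost without all arrays of prep 1 (0.0684) or prep 2 (0.122). Between treated day 3 and treated day 1, limma called 0 members without the block (0.148% of all probe sets; an unadjusted p under 0.05 was reached by 3 members and by 618 in all) and 2 with it, Gstm1 and Mt1, against 3.84%.

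In cultures with GP alone no member passed the test. Limma called 0 of 14 in GP day 1 against day 0, GP day 3 against GP day 1 and GP day 3 against day 0, without and with the prep block. All probe sets were called at 0.242%, 0.711% and 0% without the block and at 0.725%, 1.85% and 0.0134% with it, and 0, 1 and 0 members had an unadjusted p under 0.05, as did 258, 479 and 312 of all probe sets. The 1 was Gclm, at -0.46 ± 0.20 in GP day 3 against GP day 1. Mt2 differed between GP day 3 and GP day 1 by 0.01 ± 0.85, Mt1 by 0.56 ± 0.72 and Hmox1 by 0.41 ± 0.33.

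Whether the effect of treatment itself differed between the days was tested as an interaction. Limma called 0 of 7453 probe sets, members included, without and with the prep block, so 0% of probe sets were called, and 0 members and 270 probe sets had an unadjusted p under 0.05. With the block, the day 3 minus the day 1 effect was 0.64 ± 0.21 for Gstm1 (93543_f_at, adjusted p = 0.329) and 0.89 ± 0.44 for Mt1 (0.615). For Mt2 it was -0.50 ± 0.60 (0.898) and for Gclm -0.25 ± 0.27 (0.887), also with the block.

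Other genes of these pathways were read from 6 lists, of which 65 genes were on the array and 49 were tested, with 1 probe set per gene. Without the block 0 of 49 were called at day 1 and 4 at day 3, all lower. Of all probe sets, 0.926% and 4.11% were called. Txnip, which binds and inhibits thioredoxin, averaged 153 ± 53.0 in treated and 664 ± 56.1 in GP cultures at day 3 (SD, n = 3 arrays each) and fell by 2.17 ± 0.28 on the log2 scale (adjusted p = 0.00117). Nqo1, a quinone reductase and Nrf2 target read by a relaxed-design probe set, averaged 39.4 ± 1.93 in treated and 112 ± 27.9 in GP cultures and fell by 1.48 ± 0.29 (0.0121). Nfe2l1, an Nrf2-related transcription factor, averaged 526 ± 29.4 in treated and 816 ± 139 in GP cultures and fell by 0.62 ± 0.15 (0.0336). Gstm3, a mu-class transferase on a probe set with a shared-family suffix, averaged 255 ± 85.7 in treated and 471 ± 121 in GP cultures and fell by 0.90 ± 0.23 (0.0474).

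Txnip stayed called without each single array and was lost without all of prep 2 (0.133). Nqo1 was lost without GP day 3 prep 2 (0.0626) and without all arrays of prep 1 (0.2597) or prep 2 (0.241). Nfe2l1 was lost without any array of the comparison but GP prep 1, at 0.0870, 0.0663 and 0.112 without treated preps 1, 2 and 3 and 0.0842 and 0.0868 without GP preps 2 and 3. It was also lost without all arrays of prep 1 (0.3097), 2 (0.3103) or 3 (0.0581) and in a fit of only these groups (0.136). Gstm3 was lost without treated prep 1 (0.156) or 2 (0.135) and without GP prep 1 (0.187) or 2 (0.178). It was also lost without all arrays of prep 1 (0.6102) or prep 2 (0.528), with no signal filter (0.0763) and in a fit of only these groups (0.191).

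With the prep block 5 of 49 were called at day 1, all lower, and 8 at day 3, 2 higher and 6 lower. Of all probe sets, 4.99% and 13.8% were called. The genes named in this paragraph were called in the fit with the block and were chosen after their values were seen. At day 1 Ephx1, microsomal epoxide hydrolase, averaged 264 ± 45.5 in treated and 613 ± 172 in GP cultures, and fell by 1.19 (adjusted p = 0.000588). Mgst3, a microsomal glutathione transferase, averaged 259 ± 62.8 in treated and 583 ± 243 in GP cultures and fell by 1.10 (0.00326), and the autophagy receptor gene Sqstm1 fell by 0.53 (0.00655). Txnip and Gstm3 made up the rest. At day 3 Gsr, glutathione reductase, averaged 270.1 ± 48.9 in treated and 182 ± 21.9 in GP cultures, a rise of 0.56 (0.0376), and Gpx7, an endoplasmic reticulum peroxidase, averaged 177 ± 52.9 in treated and 92.3 ± 6.77 in GP cultures, a rise of 0.90 (0.0161). Glrx, a glutaredoxin, fell by 0.82 (0.000519) and Mgst3 by 0.75 (0.0125). None of Ephx1, Mgst3, Sqstm1, Gsr, Gpx7 and Glrx passed without the block at either day. At day 3 the unblocked adjusted p was 0.510 for Glrx, with a standard error of 0.55 and overlapping groups, and 0.188 for Gsr. No array or prep was left out in testing these blocked calls.

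By list, the day 3 calls without the block were 0 of 4 genes of glutathione synthesis and recycling, 1 of 6 other glutathione transferases, 0 of 10 peroxidases, catalase and superoxide dismutases, 1 of 7 thioredoxin system genes, 2 of 20 Nrf2 regulators and targets and 0 of 2 metal response genes. The median log2 differences of these lists at day 3 were 0.41, -0.30, -0.11, 0.00, -0.16 and -0.11, where that of all probe sets was 0.00. Gclc, the catalytic partner of Gclm, differed by -0.11 ± 0.25 at day 1 and 0.39 ± 0.25 at day 3. Gss, glutathione synthetase, differed by 0.18 ± 0.16 and 0.44 ± 0.16. Nfe2l2, which encodes Nrf2, differed by -0.39 ± 0.26 and -0.12 ± 0.26, and Mtf1, which encodes the factor that binds metal response elements, by 0.09 ± 0.60 and 0.03 ± 0.60. None of these 4 passed in either fit at either day.

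The members varied together in part. Over the 15 arrays, with each prep centred, the Pearson correlation of log2 values was 0.87 between Gstm1 (93543_f_at) and Gstm2 (93009_at), 0.86 between Gclm and Txnrd1, and -0.91 between Gclm and Gstm1. It was 0.56 between Mt1 and Mt2, and 0.73 and 0.72 between Hmox1 and each of these. These points share groups, and the values are a description. The rule for naming genes of like pattern took members called without the block at day 3, of which there were 0. For the 3 called with the block, chosen after their values were seen, the most alike genes by the same measure over 15 arrays were Crabp2 (0.98) and Rhob (0.94) for Mt2, Xdh (0.92) and Flii (0.91) for Hmox1, and Jarid2 (0.92) and Mag (0.91) for Gstm2 (161357_r_at).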

How the data were processed

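RNA was hybridised to 15 oligonucleotide arrays of 1 colour. The authors deposited linear intensity values per probe set, scaled to a common trimmed mean; the software is not given in the sources used here. A floor was set at 2.8, the 10th percentile of the deposited values, before log2 was taken. The 66 control probe sets and those with a mean signal (geometric mean) under 22.3, the 40th percentile, were left out, leaving 7453. All arrays entered a single limma 3.58.1 fit in R 4.3.3 (lmFit, eBayes with trend), with 10 residual degrees of freedom, or 8 with the prep number as a block. P-values were adjusted by the Benjamini-Hochberg method over all 7453 and called at 0.05. Errors of log2 differences are standard errors from the fit.

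The prep numbers were checked for pairing before calls were compared. Over 30 same-numbered pairs of arrays, deviations from group means correlated at 0.190 to 0.703 (median 0.425), every one over 0.1, against at most 0.255 (median -0.317) for different numbers. Each of the 15 arrays had its highest mean correlation with the arrays of its own number in other groups. Deviations within a group sum to 0, so positive values for same numbers push those for different numbers below 0. The numbers therefore pair the samples, with the pairing taken from the data and the labels' prep numbers.

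Of 12422 probe sets other than controls, 10833 had 1 symbol in the platform annotation, 396 several and 1193 none. Names in it can be old: 10839 probe sets were found by gene ID in the GRCm38.p6 RefSeq table, with 0 symbols changed. The named genes were all members, the list genes past the threshold and, for members called at day 3 without the block, the 2 most alike genes. The members and lists were chosen with earlier results of these data known. The test was checked on simulated data. Alternatives changed the floor, filter, normalization, samples in the fit, arrays left out and the block. For the members they were also run with the block, an alternative chosen after seeing the data.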

Additional observations from a re-analysis of the deposited data

How the results depend on the processing

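The prep numbers pair the samples, so the block is given beside each call it changed. With the block the members called were 4 at day 1 and 3 at day 3 between treated and GP cultures, 2 in treated day 3 against treated day 1, 6 in treated day 1 and 2 in treated day 3 against day 0, where without it they were 0, 0, 0, 2 and 0. The block changed no call of the GP time comparisons or the interaction, which had 0 under every setting. Among the 49 list genes it gave 5 at day 1 and 8 at day 3, against 0 and 4. Of all probe sets, 4.99% and 13.8% were called with the block, against 0.926% and 4.11%.

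Without the block, leaving out 1 array or 1 prep gave 0 to 3 members at day 1, 0 to 3 at day 3, 0 to 4 for treated day 3 against treated day 1, 0 to 5 for treated day 1 against day 0 and 0 to 2 for treated day 3 against day 0. The highest counts came without replicate 3. The shares of all probe sets called in these leave-out fits are not given here. With the block the ranges were 0 to 4, 0 to 4, 0 to 5, 2 to 6 and 0 to 3, and leaving out replicate 2 gave the lowest count in each, tied with replicate 1 at day 1 and for treated day 3 against day 0. A fit of only the groups compared gave 1 at day 3 and 1 for treated day 1 against day 0, where no signal filter and quantile normalization also gave 1. With the block, no signal filter gave 1 at day 1 and 1 for treated day 3 against treated day 1, and a fit of only the groups compared gave 1 for treated day 3 against treated day 1 and 1 for treated day 3 against day 0. The cause was not tested.

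The settings that ended a call stand beside each member, and beside Txnip, Nqo1, Nfe2l1 and Gstm3 for their calls without the block. For the list genes called with the block, no other setting was run with the block. With an array or prep left out, signs turned for differences near 0. At day 1 these ranged from -0.058 to 0.38 for Gstm1 (161633_r_at), -0.27 to 0.13 for Gstm2 (161357_r_at), -0.23 to 0.0098 for Gstm5 (100630_f_at), -1.02 to 0.24 for Gstm5 (100631_r_at), -0.56 to 0.051 for Hmox1 and -0.22 to 0.34 for Nqo1. At day 3 they ranged from -0.35 to 0.42 for Gstm1 (161633_r_at). No other setting turned a sign. Dim probe sets, Gsta4 and Sod3 among them, limit what these arrays can show.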
